A study of Cricetulus griseus with 40 samples.

Results

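The comparison sets the 120 h libraries of a batch culture of CHO-S cells against those taken 12 h before and 12 h after. CHO-S is a suspension-adapted Chinese hamster ovary line, a standard host for the production of recombinant proteins. Members were chosen by time after seeding alone: 12 of the 40 libraries of the series, of which 4 are from 120 h, 4 from 108 h and 4 from 132 h. All 3 groups hold the same untreated cell line in CD CHO medium with L-glutamine, an anti-clumping agent and antibiotics, shaken in flasks. Between groups the labels differ by time alone. The other 28 libraries cover the remaining times between 72 h and 180 h. RNA of harvested cells was sequenced as poly(A)-selected stranded libraries, and the deposited values are FPKM, fragment counts scaled to transcript length and library size. The series gives 4 as its number of cultures and no label ties a library to a culture, so the p-values measure the spread between libraries, which may be technical. The libraries are of whole cultures, in which fewer cells of a type and less RNA per cell cannot be told apart.

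In batch culture no medium is added after seeding, so nutrients fall and waste products gather while the cells go from growth into a stationary state. Immediate early genes answer growth factors and stress within minutes, without new protein synthesis, and their transcripts are short-lived. Egr1, a zinc finger transcription factor, is a standard member that is switched on downstream of the ERK kinases. Others act as a brake on the same signal, among them the Dusp phosphatases and the Sprouty proteins.

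The test covered the 12259 genes that reached 1 FPKM in 4 or more of the 40 libraries, of which 9334 have a gene symbol that is not a placeholder. For each gene the mean of log2(FPKM + 1) at 108 h and 132 h was averaged and subtracted from the mean at 120 h; this difference is called the contrast below. A gene that rose or fell steadily over the 24 h has a contrast near 0, and a gene that peaked or dipped at 120 h has one away from 0. The test was limma on all 40 libraries, and the threshold was 0.05 for the p-value after Benjamini-Hochberg adjustment over all 12259 genes.

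The libraries of the 3 times were alike in their totals. Correlations over genes between libraries of the same time ran from 0.954 to 0.989, with a median of 0.977. Those between libraries of different times ran from 0.932 to 0.988, with a median of 0.980. Libraries of a time were thus no closer to each other by the median. Summed FPKM averaged 539927 at 120 h and 546137 at 108 h and 132 h (exact permutation test over the 12 libraries, two-sided, p = 0.554), and 11470 and 11432.5 genes reached 1 FPKM (p = 0.356 by the same exact test). Absolute depth is unknown. An estimate of relative depth, read from the steps between low FPKM values, averaged 1.11 ± 0.06 (SD, n = 4) at 120 h and 0.983 ± 0.09 (SD, n = 8) at its neighbours, with an exact permutation p of 0.0323 that became 0.162 after adjustment over the 5 library measures tested. Within each time, libraries also differed along 1 shared pattern of genes, defined on the 28 libraries of the other times, where it held 55.7% of the variance within times. Scores on it, in SD, were 0.65, 0.56, -0.07 and -1.002 in replicates 1 to 4 of 108 h, -0.59, 0.43, 0.44 and 1.24 at 120 h, and 1.28, 0.45, 0.42 and -0.65 at 132 h. The means at 120 h and at its neighbours were 0.378 and 0.204 (exact permutation p = 0.711), so the groups overlapped on this pattern, but a gene that follows it varies widely within each time. Replicates 1 and 4 lay at opposite ends of it at each of the 3 times and changed places at each step, so a replicate number is used here only to name a library.

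Of 24 marker genes of other cell types listed, 19 are in the files and 2 passed the filter. These were Alb, at 0.294 to 1.063 FPKM in the 12 libraries, and Pparg, at 96.9 to 166 FPKM, and the summed level of the 19 was 98.1 to 167 FPKM. Between 13 and 16 of the 19 were listed at 0 in each library, among them the leukocyte markers Ptprc and Cd3e. The mesenchymal filament gene Vim was present at 622.5 to 815 FPKM in all 12 libraries.

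Egr1 was the single gene that passed. It is NCBI gene 100755852, and its level was 11.6, 13.2, 12.6 and 8.13 FPKM in replicates 1 to 4 of 108 h. At 120 h it was 16.8, 17.4, 27.4 and 37.4 FPKM, and at 132 h it was 8.64, 7.43, 6.68 and 7.66 FPKM. All 4 libraries of 120 h lay above all 8 of the neighbouring times, and replicates 3 and 4 of 120 h were well above replicates 1 and 2. The means were 11.4 ± 2.27 FPKM at 108 h, 24.8 ± 9.72 FPKM at 120 h and 7.60 ± 0.81 FPKM at 132 h (SD, n = 4 each). The contrast was 1.26 ± 0.16 (SE) on the log2(FPKM + 1) scale, with a limma adjusted p of 4.21e-05. Both steps passed on their own: Egr1 rose by 1.00 ± 0.18 (SE) from 108 h to 120 h (limma adjusted p = 0.0278) and fell by 1.51 ± 0.18 from 120 h to 132 h (limma adjusted p = 1.71e-05). No other gene of the 12259 rose into 120 h and fell out of it with both steps past the threshold.

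The same gene at the other times gives the scale of this peak. Egr1 averaged 10.05 ± 2.06 FPKM at 72 h, 14.3 ± 2.47 at 84 h and 10.8 ± 1.54 at 96 h (SD, n = 4 each). After 132 h the mean was 10.4 ± 0.70 FPKM at 144 h, then 6.70 ± 1.61 at 156 h, then 10.6 ± 1.35 at 168 h, and 4.47 ± 0.66 in the last libraries, at 180 h. The highest library outside 120 h held 16.5 FPKM, at 84 h, just under the lowest library of 120 h at 16.8 FPKM. The contrast at 120 h exceeded the average of the same contrast centred on 84 h and on 156 h, which share no library with it, by 1.34 ± 0.19 (SE; limma adjusted p = 7.16e-04), and Egr1 was again the single gene to pass. Centred on each time in turn, the contrast of Egr1 was 0.42 (84 h), -0.22 (96 h), -0.47 (108 h), 0.50 (144 h), -0.60 (156 h) and 0.85 (168 h), each with an SE of 0.16. The contrast centred on 168 h also shares no library with that at 120 h, but it was not part of the average above. At 168 h the limma p for Egr1 was 6.01e-06 unadjusted and 0.0737 adjusted. Its difference from the contrast at 120 h was not tested. In the contrast centred on 132 h, where 120 h is one of the neighbours, it was -0.96 and passed with a limma adjusted p of 0.0088. From 120 h on, the mean of Egr1 was higher at 120 h, 144 h and 168 h than at 132 h, 156 h and 180 h. Measured over 144 h to 180 h, without the libraries of 120 h, this alternation was 0.72 ± 0.14 (SE), with an unadjusted limma p of 1.71e-05. It did not pass (limma adjusted p = 0.21) and was looked for after the values were seen. No gene passed it, and 79 genes (0.644%) had an unadjusted limma p below 0.05 in the direction of Egr1 and 74 (0.604%) in the other.

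**Figure D1:**
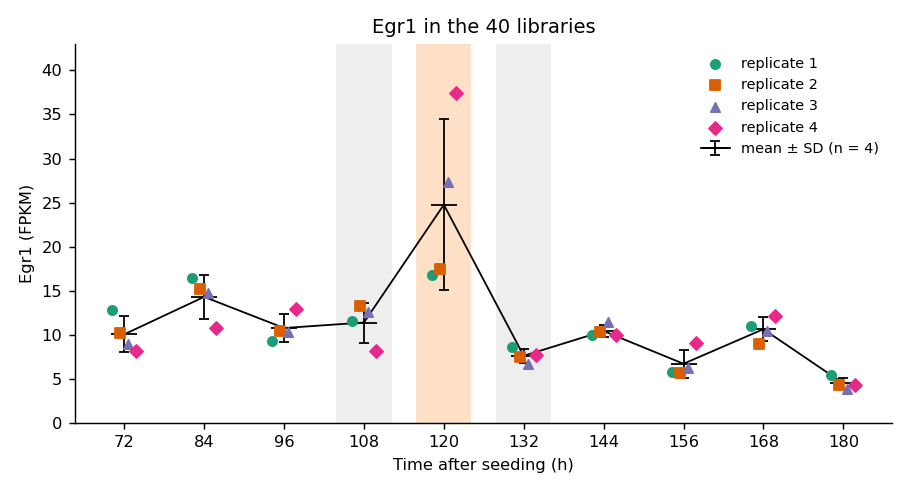
Egr1 in FPKM (y axis) against time after seeding in hours (x axis), with 1 point per library, 4 libraries a time, and a line and bars for the mean and SD; 120 h and its neighbours are shaded. The 120 h libraries run from 16.8 to 37.4 FPKM, above all 36 others, the highest of which is at 16.5 FPKM.

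The size of the Egr1 peak rested partly on replicate 4 of 120 h. Without that library the contrast was 1.04 and without replicate 1 it was 1.41, and Egr1 passed with each of the 12 libraries left out in turn. Its 2 steps did not both pass when replicate 3 or 4 of 120 h or any of the 4 libraries of 108 h was left out. A limma fit of the 12 libraries alone has fewer residual degrees of freedom and takes its spread from the 3 times only. It gave the same contrast of 1.26 with an SE of 0.20 and a limma adjusted p of 0.533. The SE was 0.16 in the main fit, where the spread is estimated over all times. The SD of Egr1 was largest at 120 h itself, 9.72 FPKM, against at most 2.47 FPKM at any other time. The SE of the main fit, and so its p-value, thus rests in part on times with a smaller spread.

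The single call is 0.00816% of the genes tested. No gene passed as lower at 120 h, and 126 genes (1.03%) had an unadjusted limma p below 0.05, 68 of them higher (0.555%) and 58 lower (0.473%). Evenly spread p-values would put a share of 0.05 of the genes below 0.05. Fewer lay there, for a reason that was not tested, so the lack of calls does not show that other genes were unchanged. With library weights 4 genes passed as higher and 1 as lower. The median contrast over all genes was -0.00, with quartiles of -0.05 and 0.06, and contrasts were above 0 in 5989 genes (48.9%). The median 95% half-width of a contrast was 0.24, before any adjustment over genes, and the change needed to pass after adjustment is larger. Over all genes, 120 h did not stand apart from the other times by the same measure: the share of genes with an unadjusted p below 0.05 was 9.48% centred on 84 h, 2.18% on 96 h, 1.49% on 108 h, 1.44% on 132 h, 1.05% on 144 h, 0.905% on 156 h and 1.66% on 168 h. The genes that passed there numbered 14 (0.114%) at 84 h, 1 at 132 h, which was Egr1, 1 at 144 h and 0 at the remaining times. Contrasts beyond 1 in either direction occurred in 29 genes, of which 3 have a symbol: Egr1, the metallothionein Mt1 and Smim13. Mt1, with a contrast of 1.32 ± 1.17 (SE), was listed at 0 in 8 of the 12 libraries, and Smim13, with -1.37 ± 0.83, in 6 of the 12. The largest contrast, 2.98 ± 1.27 (SE), belonged to the unnamed gene LOC103164544, which held 84.9 and 43.9 FPKM in replicates 1 and 4 of 120 h and was listed at 0 in the other 10 libraries. A 0 in FPKM files can be a failed estimate, and none of these 3 genes passed (limma adjusted p = 1 for each).

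**Figure D2:**
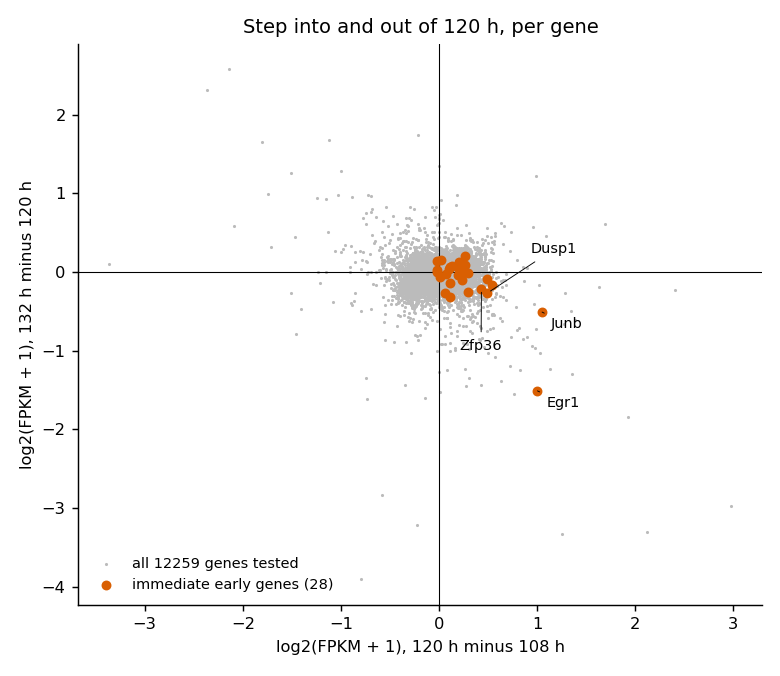
Change from 108 h to 120 h (x axis) against change from 120 h to 132 h (y axis), both in log2(FPKM + 1), with 1 point per gene for the 12259 genes tested and the 28 measured immediate early genes in colour. Egr1 lies at 1.00 and -1.51, at the lower right, apart from the bulk of genes around 0.

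Beside Egr1, no listed immediate early gene passed at 120 h. Of 33 genes listed, 29 are in the files and 28 passed the filter, and Fos, the partner of the Jun proteins in the AP-1 factor, stayed below it with at most 1.30 FPKM. The contrast was above 0 in 24 of the 28, against 48.9% of all genes, with a median of 0.11 against -0.00 over all genes, and the mean at 120 h lay above both neighbours in 16 and below both in 2. The share above both neighbours over all genes was 23.1%. Egr1 alone passed, and the unadjusted p was below 0.05 in 5 members, all higher, the direction in which 0.555% of all genes did so: Egr1, Junb, Dusp1, Dusp6 and Zfp36. The lowest of the 28 was Maff, a small Maf transcription factor, with a contrast of -0.08.

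Many of these genes vary together within a time. Along the shared pattern within times, 23 of the 28 immediate early genes loaded above 0, with a median loading of 0.16 log2 per SD, and Egr1 had one of 0.05. The mean log2(FPKM + 1) of the 27 members other than Egr1 was 3.04, 3.25, 3.32 and 3.52 in replicates 1 to 4 of 120 h, 3.22, 3.21, 3.02 and 2.78 at 108 h, and 3.46, 3.29, 3.18 and 2.98 at 132 h. The 3 times overlapped in this mean, and its lowest and highest libraries at 120 h, replicates 1 and 4, are also those with the lowest and highest scores on the shared pattern. The part of that pattern in the contrasts of single immediate early genes was not tested beyond the fit with the score as a covariate, in which Egr1 had a contrast of 1.24 (limma adjusted p = 1.17e-05) and Dusp1 passed as well, with 0.35 (limma adjusted p = 0.00425).

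**Figure D3:**
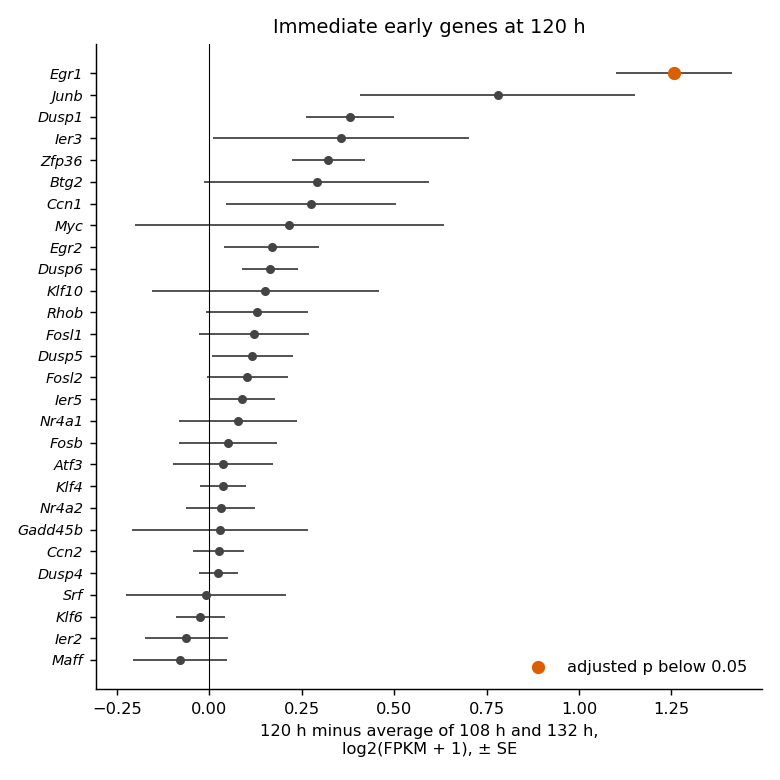
Contrast of each of the 28 measured immediate early genes at 120 h (x axis, log2(FPKM + 1), with SE bars), ordered by size, the gene that passed in its own colour. Egr1 lies at 1.26, Junb follows at 0.78 with an SE of 0.37, and 24 of the 28 lie above 0.

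Among transcription factors of the list, Junb, an AP-1 subunit, had the next largest contrast. Its level was 4.59, 3.91, 1.29 and 1.22 FPKM at 108 h, 3.28, 5.60, 6.11 and 11.7 at 120 h, and 9.13, 4.53, 3.20 and 1.65 at 132 h. The groups overlapped widely, and with a contrast of 0.78 ± 0.37 (SE) Junb did not pass (limma adjusted p = 1). Its loading on the shared pattern, taken from the other times, was 0.52 log2 per SD, against 0.05 for Egr1. At each of the 3 times its 4 libraries stood in the order of their scores. By level of Egr1 the libraries of 120 h stood in that order as well, whereas those of 108 h and of 132 h did not. The AP-1 subunit Fosl1 (contrast 0.12 ± 0.15, SE), the Egr1 relative Egr2 (0.17 ± 0.13), the growth regulator Myc (0.22 ± 0.42) and the orphan nuclear receptor Nr4a1 (0.08 ± 0.16) did not pass either.

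Other members of the list restrain signalling or messenger RNA. Dusp1, a phosphatase that switches off MAP kinases, was at 40.1, 42.0, 36.6 and 30.5 FPKM at 108 h, 44.9, 50.6, 54.2 and 61.6 at 120 h, and 50.7, 42.0, 42.5 and 39.4 at 132 h. All 4 libraries of 120 h exceeded those of 108 h, and 2 of them lay within the range of 132 h. Dusp1 averaged 52.8 FPKM at 120 h. Its means after 132 h lay below this, between 43.7 FPKM (180 h) and 50.3 FPKM (144 h). The contrast was 0.38 ± 0.12 (SE) and did not pass (limma adjusted p = 1). It passed under 2 alternatives, with library weights (0.36, limma adjusted p = 0.0492) and with the score as a covariate (0.35, limma adjusted p = 0.00425). Dusp6, which acts on ERK itself, had a contrast of 0.16 ± 0.08, from means of 9.45, 9.91 and 8.14 FPKM at 108 h, 120 h and 132 h.

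Zfp36, which binds AU-rich messages and speeds their decay, was at 8.62, 8.55, 8.35 and 7.49 FPKM at 108 h, 10.3, 9.27, 12.4 and 14.4 at 120 h, and 11.1, 11.1, 8.90 and 8.18 at 132 h. Each 120 h library exceeded each of 108 h, and 2 of them lay above all of 132 h. Zfp36 was as high again later: its mean of 11.9 FPKM at 168 h exceeded the 11.6 FPKM of 120 h. The remaining means of Zfp36 after 132 h lay between 10.5 FPKM (156 h) and 11.4 FPKM (144 h). Its contrast was 0.32 ± 0.10 (SE; limma adjusted p = 1). Ier3, a stress-responsive survival gene, with 0.36 ± 0.35, the antiproliferative gene Btg2, with 0.29 ± 0.30, and the matricellular gene Ccn1, with 0.27 ± 0.23, had contrasts near the size of their SE. Several of these values rested on replicates 1 and 4 of 120 h. Without replicate 4 and without replicate 1, in that order, the contrast was 0.50 and 1.02 for Junb, 0.09 and 0.62 for Ier3, 0.13 and 0.56 for Btg2, 0.18 and 0.38 for Ccn1, 0.10 and 0.31 for Egr2, and 0.04 and 0.19 for Fosl1.

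A second list, of 15 measured genes that feed back on ERK signalling, bind Egr1 or serve as EGF receptor ligands, was put together after the Egr1 result was seen, and Dusp4, Dusp5 and Dusp6 stand in both lists. None of the 15 passed, and 12 had a contrast above 0, against 48.9% of all genes. The median was 0.03, against -0.00 over all genes. Spry2, an inhibitor of receptor tyrosine kinase signalling, was highest with 0.21 ± 0.06 (SE; limma adjusted p = 1). Its level was 33.7, 34.7, 33.998 and 28.8 FPKM at 108 h, 42.8, 40.2, 42.8 and 41.7 at 120 h, and 38.3, 41.0, 38.0 and 41.0 at 132 h. The 4 libraries of 120 h were all above 108 h, and 3 of them above all of 132 h. Spry2 was higher still later: every mean from 144 h on was 48.3 FPKM or more, against 41.9 FPKM at 120 h. The change of Spry2 from 108 h to 132 h, 0.27 ± 0.07 (SE), passed with a limma adjusted p of 0.0243, whereas its contrast at 120 h did not pass. Nab2, a corepressor that binds Egr1 and is itself one of its targets, had a contrast of 0.11 ± 0.31, and the EGF receptor ligand Ereg was lowest with -0.08 ± 0.11.

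**Figure D4:**
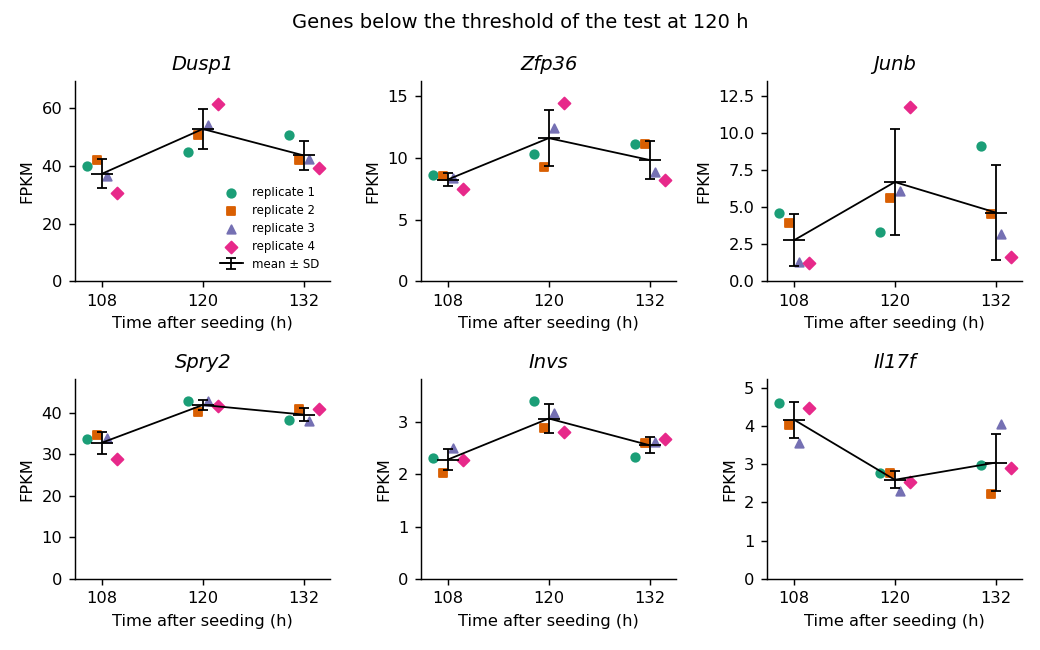
FPKM (y axis of each panel, from 0) at 108 h, 120 h and 132 h (x axis) for 6 genes that did not pass, with 1 point per library and a line and bars for the mean and SD of 4 libraries. In Zfp36, Dusp1 and Spry2 the 120 h libraries lie above those of 108 h, partly within the range of 132 h and partly above it, and in Junb the 3 times overlap.

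In 7 genes (0.0571%) all 4 libraries of 120 h lay above all 8 others, and in 4 genes (0.0326%) all 4 lay below. Egr1 is one of the 7, and Invs and Lysmd1, singled out after their values were seen, are others; 3 of the 7 have placeholder names. Invs, which encodes the ciliary protein inversin, was at 2.31, 2.03, 2.52 and 2.29 FPKM at 108 h, 3.42, 2.90, 3.17 and 2.81 at 120 h, and 2.33, 2.60, 2.63 and 2.68 at 132 h. Its contrast of 0.25 ± 0.07 (SE) did not pass (limma adjusted p = 1). Outside the 3 times, Invs averaged 3.19 FPKM at 72 h and at 180 h, above its mean of 3.07 FPKM at 120 h. Lysmd1 averaged 4.13, 5.12 and 4.07 FPKM, a contrast of 0.26 ± 0.14. Among the 4 below, the named gene is Dnajc1, a DnaJ cochaperone of the endoplasmic reticulum, which averaged 3.21, 2.80 and 3.32 FPKM (contrast -0.17 ± 0.11). Tm7sf2, a sterol reductase of cholesterol synthesis, was the member of its list with the highest contrast, 0.35 ± 0.13 (SE), at means of 0.550, 1.14 and 0.837 FPKM.

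No gene dipped at 120 h beyond the threshold, and the 8 named genes nearest to it had contrasts between -0.34 and -0.16. Hykk, a hydroxylysine kinase, had -0.26 ± 0.09 (SE) from means of 1.36, 1.04 and 1.57 FPKM, and was nearest to the threshold of the 8. The cytokine gene Il15 was at 4.82, 4.21, 4.57 and 4.61 FPKM at 108 h, 3.74, 3.59, 3.31 and 1.95 at 120 h, and 4.42, 2.90, 3.63 and 4.50 at 132 h. Its 120 h libraries were below 108 h and overlapped 132 h, and its contrast was -0.34 ± 0.12. Without replicate 4 of 120 h, its lowest library, the contrast was -0.19. Il17f, another cytokine gene, averaged 4.17, 2.59 and 3.04 FPKM at the 3 times, a contrast of -0.34 ± 0.12 that did not pass. The other 5 were R3hcc1l (-0.20 ± 0.07), Bend3 (-0.17 ± 0.07), Tmem35b (-0.34 ± 0.13), Phlpp2, a phosphatase that acts on Akt (-0.19 ± 0.08), and the SNARE gene Stx18 (-0.16 ± 0.07), all with a limma adjusted p of 1.

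Most of what changed over the 24 h passed through 120 h on its way. From 108 h to 132 h, 96 genes rose (0.783%) and 486 fell (3.96%) past the limma threshold. In 578 of these 582 genes (99.3%) the mean at 120 h lay between those of its neighbours, against 56.2% of all genes; it lay above both in 3 and below both in 1. The same libraries of 108 h and 132 h set the change and the interval, so a gene with a wide interval is more apt to hold 120 h within it. The comparison from 108 h to 132 h was added after the data were seen.

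Cell division genes were the clearest case. Of 36 measured genes of the G2 phase and mitosis, 27 fell from 108 h to 132 h and none rose. Over all genes 3.96% fell and 0.783% rose. The median change was -0.60, against -0.05 over all genes. The mean at 120 h lay between its neighbours in all 36, against 56.2% of all genes. The median contrast was -0.00, with a range from -0.10 for the checkpoint gene Mad2l1 to 0.10 for the mitotic kinase Aurka. Mki67, which encodes the proliferation marker Ki-67, is given on its own: it was at 26.5, 21.015, 31.6 and 32.2 FPKM at 108 h, 24.8, 21.998, 20.4 and 19.3 at 120 h, and 16.2, 15.99, 20.03 and 24.2 at 132 h. Its groups overlapped, its contrast was -0.08 ± 0.15 (SE), and its change from 108 h to 132 h, -0.52 ± 0.18, did not pass (limma adjusted p = 0.0860).

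Replication and S phase genes moved the same way: 27 of the 42 measured fell and none rose, with a median change of -0.51. Among all genes 3.96% fell and 0.783% rose. The mean at 120 h lay between its neighbours in 40 of the 42, against 56.2% of all genes. Gins1, a subunit of the replicative helicase, had the contrast farthest from 0, -0.36, and none of the 42 passed at 120 h. Cdca7, a cell-cycle gene needed for the maintenance of DNA methylation, was the single gene that passed as lower from 108 h to 120 h. It was at 29.99, 31.6, 33.9 and 36.7 FPKM at 108 h, 24.7, 24.4, 25.5 and 25.0 at 120 h, and 17.2, 19.4, 19.3 and 21.4 at 132 h. The 3 times did not overlap, and its steps were nearly equal: -0.39 ± 0.07 (SE; limma adjusted p = 0.0278) into 120 h and -0.35 ± 0.07 out of it (limma adjusted p = 0.127), for a contrast of -0.02.

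Genes of the lysosome and the extracellular matrix went the other way. Of 35 measured lysosomal genes 8 rose and none fell from 108 h to 132 h, with a median change of 0.31. Of 22 genes of the matrix and secreted proteases 9 rose and 1 fell, with a median of 0.41. Among all genes 0.783% rose and 3.96% fell, with a median of -0.05. The median contrasts at 120 h were -0.00 and 0.01. The mean at 120 h lay between its neighbours in 30 of 35 and 20 of 22, against 56.2% of all genes. Spp1, which encodes the secreted phosphoprotein osteopontin, was at 789, 780, 599 and 835 FPKM at 108 h, 1506, 1294, 1040 and 882 at 120 h, and 1727, 1953, 1720 and 1740 at 132 h. The 3 times did not overlap, and the change of 1.26 ± 0.20 (SE) from 108 h to 132 h, with a limma adjusted p of 2.74e-04, was as large as the contrast of Egr1, yet the contrast of Spp1 was 0.01 ± 0.18.

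**Figure D5:**
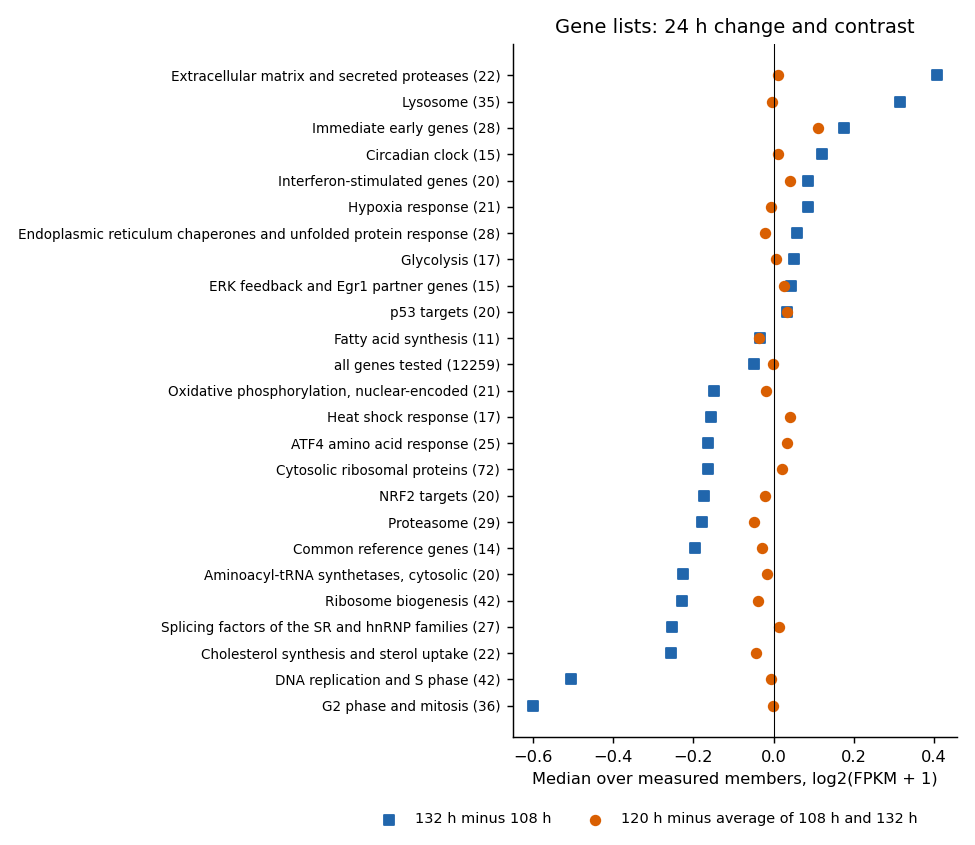
Median over the measured members of each gene list (number in brackets, lists of under 4 genes not drawn) of the change from 108 h to 132 h (squares) and of the contrast at 120 h (circles), both in log2(FPKM + 1) on the x axis. The changes run from -0.60 for G2 phase and mitosis to 0.41 for the extracellular matrix, whereas the contrasts of all lists lie close to 0, the farthest being 0.11 for the immediate early genes.

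Lists for stress and metabolism did not show a member that passed at 120 h. Their counts below stand against 48.9% of all genes with a contrast above 0. Of 17 measured heat shock genes 10 had a contrast above 0, the highest being the heat shock factor Hsf1 with 0.20, and of 25 genes of the ATF4 amino acid response 16 did, led by the mTORC1 inhibitor Ddit4 with 0.20. Among 21 hypoxia genes 9 were above 0, led by the angiogenic factor Vegfa with 0.25, and among 17 glycolytic genes 12 were, led by the enolase Eno2 with 0.29. Genes of the unfolded protein response (8 of 28 above 0), NRF2 targets (6 of 20), the proteasome (8 of 29), cholesterol synthesis (6 of 22), ribosome biogenesis (10 of 42) and the cytosolic aminoacyl-tRNA synthetases (6 of 20) were more often below 0, with medians between -0.05 and -0.02. The cytosolic ribosomal proteins had 45 of 72 above 0 and a median of 0.02.

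Of the genes often used as internal references, 14 were measured and none passed. The contrast was above 0 in 4 of them, against 48.9% of all genes, and the median was -0.03. Gapdh, the glycolytic dehydrogenase, averaged 4642 ± 1517, 5208 ± 1491 and 5383 ± 1831 FPKM (SD, n = 4) at 108 h, 120 h and 132 h, with a contrast of 0.08 ± 0.38 (SE). Its loading on the pattern shared within times, 0.69 log2 per SD, was far above that of Egr1, and its lowest library at each time was the one with the lowest score. Actb, cytoplasmic actin, had a contrast of 0.09 ± 0.24, and the sign of both contrasts changed when single libraries were left out.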

How the data were processed

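The authors deposited 1 file of FPKM per library, with 27868 lines and 26793 NCBI gene IDs. The authors' tools included Trimmomatic 0.32, Cufflinks 2.2.1, SAMtools 1.0 and FastQC, as listed in the submitters' processing notes. No source used here names the aligner, the build or the strand setting, so overlapping and near-identical genes may share reads. FPKM of lines with the same ID were summed (634 IDs), and 23 lines without an ID, all at 0, were left out. A RefSeq table (assembly CriGri-PICRH-1.0) gave names for 23196 IDs and no coordinates.

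The kept genes (1 FPKM in 4 libraries) were compared on the log2(FPKM + 1) scale in limma (version 3.58.1, R 4.3.3), with a mean per time, moderated variances with trend and robust estimation, 30 residual degrees of freedom, and two-sided Benjamini-Hochberg adjusted p-values. Fold changes on this scale understate those of low genes. FPKM carry no counts, so absolute depth is unknown; relative depth over all libraries ran from 0.82 to 1.24. No libraries held identical values. Library measures were compared by exact permutation with scipy 1.17.1. The pattern within times is the first principal component of deviations from the time means in the 28 other libraries. The test was checked on simulated data with independent noise for each gene and library. That noise lacks the pattern shared within times, so the check does not cover its effect on the test. The members and gene lists were chosen with earlier results of these data known.

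Named genes were those that passed; with none in a direction, the 8 named genes beyond both neighbours with the largest moderated t; list members that passed; Gapdh, Actb, Spp1 and Mki67; the highest or lowest member of a list; and genes said in the text to be chosen after their values were seen. The other immediate early and feedback genes with values were also chosen after seeing them. Alternatives were other pseudocounts (0.1 and 5), filters and scalings, library weights, a fit of the 12 libraries, the score as a covariate, a replicate block, single-line genes, plain variance moderation, leaving out each library, and, added after seeing the data, leaving out the library with the lowest score at each of the 3 times. Markers of nuclear-retained RNA (12 listed) were not among the files' IDs as matched. Of 23 genes listed under replication-dependent histones 1 was measured, with a contrast of -0.07. It was Slbp, which encodes a protein that binds histone messages and is not a histone gene. One gene of those whose libraries did not overlap is not reported here.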

Additional observations from a re-analysis of the deposited data

Results flagged for a closer look

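The contrast of Egr1 at 120 h exceeded the average of the contrasts centred on 84 h and 156 h by 1.34 (log2(FPKM + 1)), by the test of that difference given above. That average leaves out the contrast centred on 168 h, where Egr1 had 0.85. The other values listed here lay far from the remaining 3 libraries of their time, a criterion that chance meets in about 1 in 20 groups; it was met in 8 of the 108 groups of 4 libraries examined. Among genes, Spp1 was at 1953 FPKM in replicate 2 of 132 h, with the others at 1720 to 1740. Spry2 was at 28.8 FPKM in replicate 4 of 108 h, with the others at 33.7 to 34.7. Dnajc1 was at 3.77 FPKM in replicate 4 of 132 h, with the others at 3.12 to 3.21. Tm7sf2 was at 1.28 FPKM in replicate 2 of 132 h, with the others at 0.622 to 0.733. Hykk was at 0.993 FPKM in replicate 1 of 132 h, with the others at 1.69 to 1.83. R3hcc1l was at 8.14 FPKM in replicate 4 of 108 h, with the others at 7.03 to 7.19, and at 6.86 FPKM in replicate 1 of 120 h, with the others at 6.18 to 6.30. Summed FPKM was 507566 in replicate 4 of 132 h, with the others at 552311 to 561076.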

How the results depend on the processing

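Over the 24 alternatives the contrast of Egr1 stayed above 0, from 1.00 to 1.41, and its limma adjusted p ran from 3.63e-07 to 0.533, above 0.05 in the fit of the 12 libraries alone and in no other. That fit called 0 genes higher, 0 peaks and 0 genes with both steps, and the difference from 84 h and 156 h could not be computed in it. Library weights gave 4 genes higher, 4 peaks, 1 lower, 1 trough, 2 genes up then down, 1 down then up, and 18 that differed from 84 h and 156 h; the cause was not tested. The score as a covariate gave 2 higher, 2 peaks and 4 that differed from 84 h and 156 h. Leaving out 1 library at a time gave 1 to 1 higher and 0 to 1 with both steps, and leaving out the lowest-scoring library of each time, a choice made after seeing the data, gave 0 with both steps and an Egr1 contrast of 1.34.

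Numbers did not pair the samples: 2 of 12 same-numbered pairs correlated above 0.1 (r from -0.614 to 0.603), and 4 of 12 libraries correlated best with their own number. With the replicate block Egr1 had a limma adjusted p of 1.77e-04 and 1 gene was called. The block uses the numbers as labelled, so it does not cover the correlation of replicate 1 with replicate 4 of the next time, given under the other observations; no block with exchanged numbers was fitted.

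Contrasts near 0 changed sign in 22 of 759 fits of single genes. With single libraries left out they ran from -0.075 to 0.28 for Gapdh, -0.028 to 0.19 for Actb, -0.12 to 0.14 for Spp1, -0.044 to 0.0066 for Cdca7, -0.019 to 0.20 for Nr4a1, -0.017 to 0.47 for Myc and -0.092 to 0.34 for Nab2. Library weights gave -0.0091 for Actb, -0.0084 for Spp1 and 0.0029 for Cdca7, the score as a covariate -0.042 for Gapdh, and leaving out the lowest-scoring libraries -0.10 for Spp1 and 0.034 for Cdca7. Without counts, the counting error of low genes such as Tm7sf2 is unknown.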

Other observations

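Over the 28 immediate early genes, the alternation between times over 144 h to 180 h described for Egr1 was above 0 in 20, with a median of 0.06, against 54.2% of all genes above 0 and a median of 0.01.

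Replicate numbers alternated as well. As deviations from the mean of their time, over genes, libraries numbered 1 correlated negatively with the library numbered 1 taken 12 h later in 9 of 9 pairs (median r = -0.52), and those numbered 4 in 9 of 9 (median r = -0.53). At 24 h apart the same numbers correlated positively in 8 of 8 pairs each (medians 0.56 and 0.60). Replicate 1 of one time and replicate 4 of the time 12 h before or after correlated positively in 18 of 18 pairs, with r from 0.209 to 0.820. Replicates 2 and 3 had medians between -0.01 and 0.07 at both distances. These correlations are across genes, which are not independent, and deviations from one mean of 4 libraries are tied to each other. Group membership by time is not touched by the numbers.

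The unnamed gene LOC100760892 was listed at 0 in all 4 libraries of 120 h and in replicate 2 of 108 h, and at 1.20 to 2.24 FPKM in the other 7 of the 12 (limma adjusted p = 1).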
